A study of Rattus norvegicus with 15 samples.

Results

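The 10 genes described here are components of Notch and ephrin signalling that were listed together under arterial identity: the receptors Notch1, Notch2 and Notch3, the ligands Dll4 and Jag1, the transcriptional targets Hes1 and Hey1, and the ephrins Efnb1, Efnb2 and Efna1. They were followed in the posterior cerebral artery of the rat after occlusion of its neighbouring supply vessels. Every probe set whose platform symbol, updated through gene identifiers, was one of these names alone was taken. That gave 10 probe sets, of 15923 on the array, for 7 of the 10 genes (10412 genes had a probe set of their own); Dll4, Hey1 and Efnb2 were not represented and are not analysed here. Notch1, Efnb1 and Efna1 had 2 probe sets each. All 10 probe sets had a signal of 100 or more on all 15 arrays and so passed the minimum for testing, as did 15737 probe sets in all.

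Notch receptors are activated by ligands on a neighbouring cell, and the cleaved receptor moves to the nucleus, where it joins the DNA-binding protein Rbpj and switches on repressors of the Hes and Hey families. In arteries this pathway sets arterial rather than venous identity in the endothelium and maintains the smooth muscle coat. Ephrins are membrane-bound partners of Eph receptor kinases; Efnb2 on arterial cells and its receptor Ephb4 on venous cells separate both vessel types, while Efnb1 and Efna1 take part in contacts between vessel wall cells.

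RNA was taken from the ipsilateral posterior cerebral artery of Sprague Dawley rats of 7 weeks and 300 to 350 g, and each array (Affymetrix Rat230A, 3 per group) held RNA pooled from 8 rats. The groups were 3VO at 24 h, sham at 24 h, 3VO at 3 d, sham at 3 d and intact. In 3VO, 3-vessel occlusion, both vertebral arteries were electrocoagulated and the left common carotid artery was ligated, which lowers brain perfusion without ischaemia. In sham rats the same vessels were exposed and left untouched. Operated rats had isoflurane anaesthesia and buprenorphine, and the vessels of all groups, intact included, were dilated with papaverin and filled with latex before dissection. Hybridisation of pooled RNA was repeated, and whether the 3 pools of a group were separate animals was not stated. The p-values therefore set group differences against the spread between arrays, which may not hold the spread between animals. One of the 3 sham arrays at 3 d (replicate 1) has treatment text that describes the occlusion; its title and source call it sham, it was kept there, and the 3 d differences of the members between 3VO and sham, with the main results of the sham 3 d group against intact, are also given without it.

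The Hes1 promoter is shown because Hes1 is a classical Notch target, and Rbpj, through which Notch acts, recognises a motif whose core is TGGGAA. The 300 bases span 250 before and 50 after the annotated start (RefSeq, GRCr8, chr11:84212996-84213295, minus strand). Capitals mark TGGGAA, which was searched on both strands (reverse complement TTCCCA). Windows of 30 bases are given for the other members with a match.

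Hes1 promoter: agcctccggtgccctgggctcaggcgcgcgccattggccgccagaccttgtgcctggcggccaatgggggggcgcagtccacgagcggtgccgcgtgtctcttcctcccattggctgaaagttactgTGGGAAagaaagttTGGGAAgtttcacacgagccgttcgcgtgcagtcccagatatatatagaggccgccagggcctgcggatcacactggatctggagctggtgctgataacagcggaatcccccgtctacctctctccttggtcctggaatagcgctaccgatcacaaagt

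Notch3 (GRCr8, chr7:11834536-11834565, minus strand): gcccgggacgtgcccggagcccTGGGAAag

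Efnb1 (GRCr8, chrX:68297279-68297308, plus strand): gaactcccTGGGAActagactaagcgcgac

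Efna1 (GRCr8, chr2:176986772-176986801, minus strand): tactgtaccgtggagaagccagTGGGAAcc

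Promoter entries were matched for 8 of the 10 genes, and Dll4 and Hey1 had none. Hes1 held 2 matches, 123 and 109 bases before the start, and the first of them extended to GTGGGAA. Notch3, Efnb1 and Efna1 held 1 match each, that of Efna1 extending to GTGGGAA. No match lay in the windows of Notch1, Notch2, Jag1 or Efnb2. Of all 33469 rat promoters of this length, 25.7% held TGGGAA at least once, 3.85% at least 2 times and 6.29% held GTGGGAA. A match describes the letters only.

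The deposited values are linear signals scaled to one level on every array. The number of arrays limits the precision. Levels of different probe sets served to choose a gene's brighter probe set, to apply signal minima and to sum marker lists. Levels of different genes were not compared otherwise. Median signal was 2559 to 2941 over the 15 arrays, and pairs of arrays had Spearman correlations of 0.911 to 0.971. Markers of the artery wall were present on every array: the lowest signals were 26698 for Acta2, 43606 for Myh11, 10824 for Vwf and 23647 for Cldn5. Markers of other tissue were present too, Snap25 of neurons from 16617 to 124806 and Ttr of choroid plexus from 9354 to 282179, and no marker of these lists was at 0. Choroid plexus markers stood apart on sham 3 d replicate 3 and intact replicate 2, with scores of 3.23 and 3.27 (the mean log2 deviation of 8 markers from their 15-array means). In whole artery RNA, fewer cells of a type and less RNA per cell cannot be told apart.

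**Figure D1:**
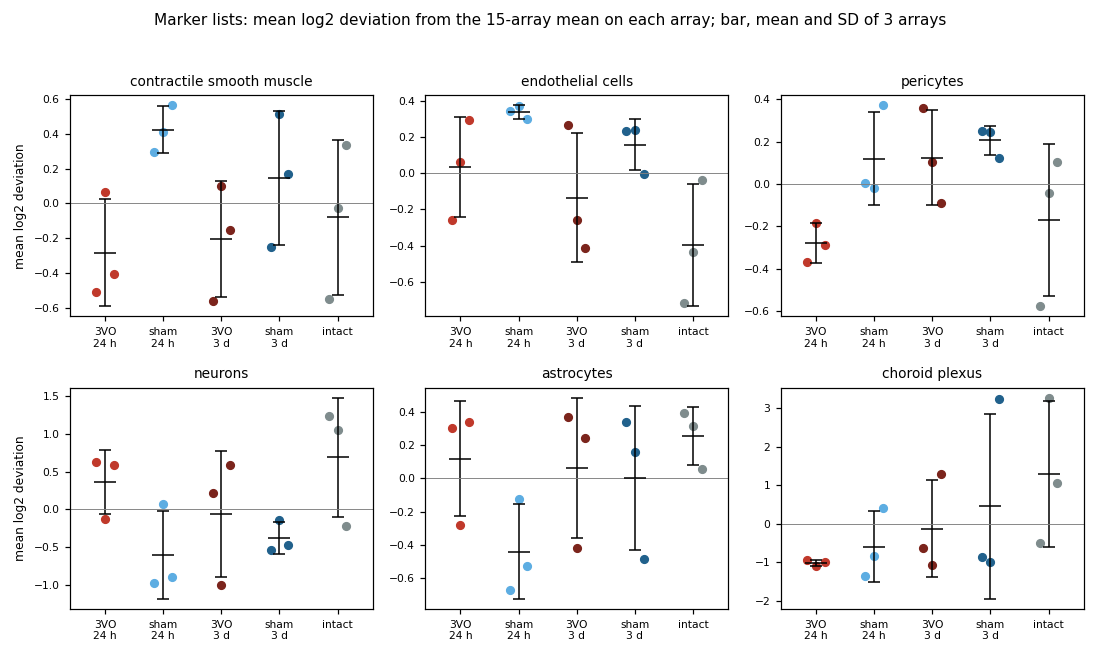
Marker list scores on each array: the vertical axis is the mean log2 deviation of a list's genes from their 15-array mean, points are arrays, bars show the mean and SD of 3 arrays, and the groups run from 3VO at 24 h to intact. The sham 24 h arrays were high in contractile smooth muscle markers (0.30 to 0.57), the intact arrays ranged from -0.22 to 1.23 in neuronal markers, and the choroid plexus panel shows the 2 arrays at 3.23 and 3.27.

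Occlusion against sham surgery asks what the redirected blood flow adds to the operation. None of the 7 genes passed the test at either time by limma with Benjamini-Hochberg adjustment over all 15737 probe sets. At 24 h 0 of 10 probe sets passed an adjusted p of 0.05, where 0.0508% of all probe sets passed, and 0 had an unadjusted p under 0.05, against 6.97% of all. At 3 d 0 of 10 passed, against 0% of all, and 1 (Efna1) had an unadjusted p under 0.05, against 4.73% of all. The 3VO and sham arrays did not overlap for 1 of 10 probe sets at 24 h, against 15.4% of all, and for 3 of 10 at 3 d, against 9.09% of all. All 10 differences at 24 h were below 0 on the log2 scale, and with 1 array left out 7 to 10 of them were, 7 without 3VO replicate 3 or sham replicate 3. The differences had a median of -0.26 over the 7 genes (their brighter probe sets) and -0.02 over all probe sets. At 3 d the median was -0.05, against -0.01 over all probe sets, and -0.36 without sham replicate 1. Other omissions moved single members the other way. Without sham replicate 3 the 3 d difference was 0.31 for Notch2 and 0.16 for Hes1.

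Contractile smooth muscle markers were not called in either comparison. At 24 h, however, 10 of 14 had an unadjusted p under 0.05 by limma, against 6.97% of all probe sets. At 3 d 0 of 14 did, against 4.73% of all. At 24 h 14 of 14 had values below 0 for 3VO minus sham, with a median of -0.67, and their summed signal was 358497 to 517772 in 3VO arrays, against 598430 to 730842 in sham arrays. Their median at 3 d was -0.38, and the summed signals overlapped there, at 344344 to 520714 in 3VO and 423466 to 687728 in sham arrays. Neuronal markers ran the other way at 24 h, with 14 of 14 above 0 and a median of 0.89. When the smooth muscle list was added to the fit as a covariate, an alternative chosen after seeing the data, the members' median at 24 h was 0.11 in place of -0.26. The 24 h scores of that list did not overlap, at -0.51 to 0.07 in 3VO and 0.30 to 0.57 in sham arrays. Smooth muscle content and occlusion therefore cannot be told apart here, and the cause was not tested.

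**Figure D2:**
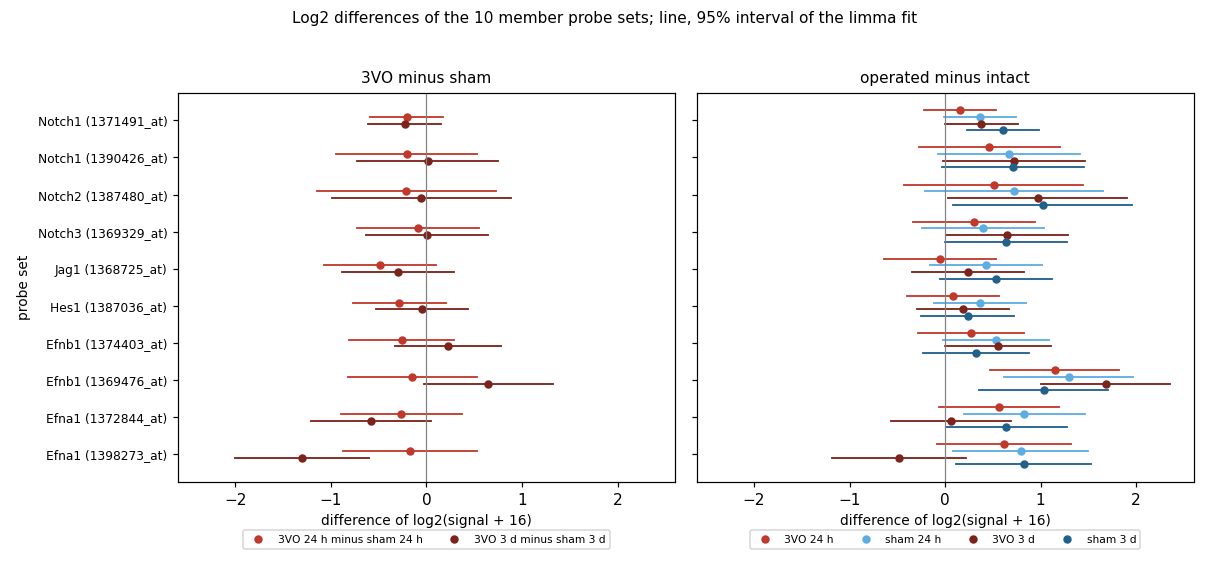
Log2 differences of the 10 probe sets, with 3VO minus sham on the left and each operated group minus intact on the right; points are limma estimates on log2(signal + 16) and lines their 95% intervals. All 24 h points on the left lie below 0 with intervals that cross it, and the Efnb1 probe set 1369476_at lies furthest right in the right panel, at 1.68 for 3VO at 3 d.

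Among the receptors, Notch1, the main Notch receptor of arterial endothelium, had signals of 5110, 4736 and 4788 on the 3VO arrays at 24 h, against 5524, 6218 and 5213 on the sham arrays (probe set 1371491_at, the brighter). At 3 d it had 6663, 5885 and 4719 on the 3VO arrays, against 5513, 6433 and 8420.4 on the sham arrays. The intact arrays read 3830.2, 5193 and 4223. All 3VO arrays at 24 h lay below all sham arrays of that time, while the groups overlapped at 3 d. The log2 difference was -0.21 (SE 0.18, 95% interval -0.59 to 0.17) at 24 h and -0.23 (SE 0.18, 95% interval -0.61 to 0.15) at 3 d. Adjusted p was 0.875 at 24 h and 0.999 at 3 d (limma). Without sham replicate 1 the 3 d difference was -0.37, and without sham replicate 3 it was -0.06. The dimmer Notch1 probe set 1390426_at spread more, from 1538 to 5996 over 15 arrays, with differences of -0.21 at 24 h and 0.01 at 3 d. At 3 d its difference was -0.21 without sham replicate 1 and 0.34 without sham replicate 2. Across the 15 arrays the 2 probe sets had a Pearson correlation of 0.55 and a Spearman correlation of 0.54.

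Notch1 was nominally highest in sham arteries at 3 d. Its mean signal there was 6789 ± 1486, against 4415 ± 701 in intact arteries (SD, n = 3 each), with every sham array above every intact array. The log2 difference of 0.61 (SE 0.18, 95% interval 0.23 to 0.99) had an unadjusted p of 0.00386 and missed the threshold after adjustment by limma (adjusted p = 0.196). Without the sham array whose treatment text conflicts, it was 0.75; without the sham array rich in choroid plexus markers, 0.44.

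Notch2, another receptor of the vessel wall, read 1867, 1601 and 748 in 3VO and 1142, 1418 and 2149.6 in sham arteries at 24 h. At 3 d it read 2654, 1951 and 1131 in 3VO and 1097, 1927 and 3106 in sham arteries, and the intact arrays read 812, 859.8 and 1094. The 3VO and sham arrays overlapped at both times, and the intact arrays were the most even, all at or under 1094. Every array of the 3 d groups exceeded every intact array, although sham replicate 1 (1097) and the highest intact array (1094) nearly coincided. The log2 difference from intact was 0.97 (SE 0.44, 95% interval 0.03 to 1.90) for 3VO and 1.02 (SE 0.44, 95% interval 0.09 to 1.96) for sham. Neither passed, with adjusted p of 0.372 for 3VO and 0.317 for sham (limma). Without sham replicate 1 the sham difference from intact was 1.40, and the difference between 3VO and sham at 3 d was -0.44 in place of -0.05. That difference between 3VO and sham turned to 0.31 without sham replicate 3 and to 0.28 without 3VO replicate 3.

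Notch3, the receptor concentrated in vascular smooth muscle and mutated in the human small vessel disease CADASIL, had 5083, 4965 and 3507 in 3VO and 3676, 5172 and 5639 in sham arteries at 24 h. At 3 d the signals were 6532, 4664 and 5893 in 3VO and 5705, 5741 and 5437 in sham arteries, and 2065, 6096 and 3711 in intact arteries. The 3VO and sham groups overlapped at both times, and 1 intact array lay above every 24 h array. The difference between 3VO and sham was -0.09 (SE 0.30, 95% interval -0.73 to 0.55) at 24 h and 0.00 (SE 0.30, 95% interval -0.64 to 0.64) at 3 d, or 0.01 without sham replicate 1.

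**Figure D3:**
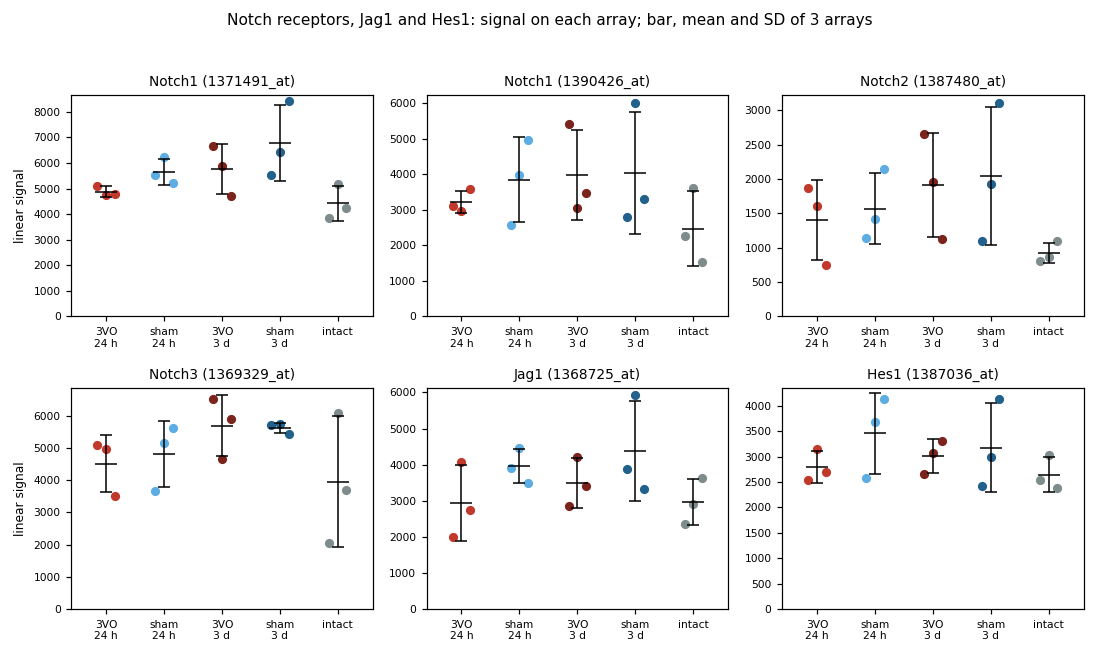
Linear signal of the Notch receptors, Jag1 and Hes1 on each array (vertical axis), by group from 3VO at 24 h to intact; points are arrays and bars show the mean and SD of 3 arrays. The Notch1 panel shows the 24 h 3VO arrays between 4736 and 5110, below the sham arrays between 5213 and 6218.

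Jag1, the ligand through which endothelium signals to smooth muscle, had the 3VO against sham difference furthest from 0 at 24 h when all arrays were used. It read 1989, 4085 and 2729 in 3VO arteries, against 3920.1, 4460.1 and 3501 in sham arteries, at 24 h. The 3VO arrays reached both below and into the range of the sham arrays. Its log2 difference was -0.49 (SE 0.28, 95% interval -1.07 to 0.10), with an unadjusted p of 0.0981 and an adjusted p of 0.79 (limma). The value rested on single arrays: it was -0.24 without 3VO replicate 1, which was smaller than that of Notch2 (-0.46), and -0.75 without 3VO replicate 2. With the smooth muscle list as a covariate, which cannot be told apart from occlusion at 24 h, it was 0.11. At 3 d Jag1 read 2856, 4213 and 3401 in 3VO and 3873, 5931 and 3315 in sham arteries, with a difference of -0.30. This was -0.36 without sham replicate 1 and -0.06 without sham replicate 2. The groups overlapped, as they did with the intact arrays at 2364, 2898 and 3626.

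Hes1, a repressor that Notch switches on, varied least of the 10 probe sets, by 1.74-fold between the lowest and the highest array; the others ranged from 2.20-fold to 5.26-fold. It read 2548, 3160.3 and 2693 in 3VO and 2578, 3682 and 4132 in sham arteries at 24 h. At 3 d it read 2662, 3075 and 3316 in 3VO and 2422, 2985 and 4137 in sham arteries, and intact arteries read 2532, 3032 and 2376. Every pair of groups overlapped. The difference between 3VO and sham was -0.28 (SE 0.23, 95% interval -0.77 to 0.20) at 24 h and -0.05 (SE 0.23, 95% interval -0.53 to 0.44) at 3 d. At 3 d it was -0.22 without sham replicate 1 and 0.16 without sham replicate 3. The difference from intact furthest from 0 was 0.37, in sham at 24 h, when all arrays were used; in sham at 3 d it was 0.24, or 0.41 without replicate 1.

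The ephrins gave the only call. Efnb1, a transmembrane ephrin, rose in 3VO arteries at 3 d relative to intact arteries at probe set 1369476_at. The signals were 3385, 4337 and 4156 in 3VO arteries at 3 d, against 1973, 824 and 1109.8 in intact arteries, and no array overlapped. The log2 difference was 1.68 (SE 0.32, 95% interval 1.003 to 2.36), a 3.2-fold difference, with an adjusted p of 0.0459 (limma). The difference lay between 1.40 and 2.02 when 1 array at a time was left out, but the call ended for 11 of the 15 arrays; it held without 3VO 24 h replicate 3, sham 3 d replicate 3, intact replicate 1 or intact replicate 3. The adjusted p was 0.108 and the difference 1.40 without intact replicate 2, and the adjusted p was 0.0546 without sham 3 d replicate 1.

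The other operated groups also lay above intact at this probe set, but no difference passed the test. Signals at 24 h were 2686, 3750.2 and 1985 in 3VO and 2412, 3483 and 3238 in sham arteries. Sham arteries at 3 d had 2089.6, 2226 and 3384. Each array of these groups lay above the highest intact array, although the lowest 3VO array at 24 h (1985) and the highest intact array (1973) nearly coincided. The log2 differences from intact were 1.15 for 3VO at 24 h (adjusted p = 0.207), 1.29 for sham at 24 h (adjusted p = 0.135) and 1.03 for sham at 3 d (adjusted p = 0.2, or 1.16 without replicate 1), all by limma. Between 3VO and sham the difference was -0.15 (SE 0.32, 95% interval -0.82 to 0.53) at 24 h and 0.65 (SE 0.32, 95% interval -0.03 to 1.32) at 3 d, where all 3VO arrays were higher although the nearest 3VO and sham arrays nearly coincided, with an adjusted p of 0.999 at 3 d. Without sham replicate 1 the 3 d difference was 0.52.

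The brighter Efnb1 probe set 1374403_at differed less. It read 2408, 4197 and 3462 in 3VO arteries at 3 d, against 1593, 2426 and 2853 in intact arteries, and the groups overlapped. Its difference was 0.55 (SE 0.26, 95% interval 0.00 to 1.10), with an adjusted p of 0.388 (limma). At 24 h it read 2808, 3268 and 2122 in 3VO and 3021, 3328 and 3345 in sham arteries, and at 3 d 3121, 3058 and 2279.6 in sham arteries, again with overlap between 3VO and sham. Between 3VO and sham the difference was -0.26 at 24 h and 0.23 at 3 d. At 3 d it was 0.31 without sham replicate 1 and 0.05 without 3VO replicate 2. The 2 Efnb1 probe sets had a Pearson correlation of 0.44 and a Spearman correlation of 0.63 over the 15 arrays, so the call rests on 1 of 2 probe sets. Beside it, neuronal markers were lower in 3VO at 3 d than in intact arteries for 13 of 14 genes, with summed signals of 70240.3 to 175023 in 3VO and 121264 to 341958 in intact arrays. Choroid plexus markers were lower for 8 of 8, with summed signals of 23031 to 233479 in 3VO and 39528 to 523360 in intact arrays. With the neuronal list as a covariate the Efnb1 difference was 1.68 (adjusted p = 0.117, limma), and without the 2 arrays highest in choroid plexus markers it was 1.40 (adjusted p = 0.114). Of those 2 arrays only intact replicate 2, the lowest at this probe set, enters the difference, so the 1.40 repeats the omission of that array. Macrophage markers were higher in 3VO at 3 d for 10 of 10 genes (median 0.75) and endothelial markers for 9 of 11 (median 0.30). So were pericyte markers for 5 of 7 (median 0.52) and leptomeningeal markers for 7 of 10 (median 0.41). Contractile smooth muscle markers were higher for 3 of 14 (median -0.18). The cause of the Efnb1 difference, including the part of macrophage markers, was not tested.

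**Figure D4:**
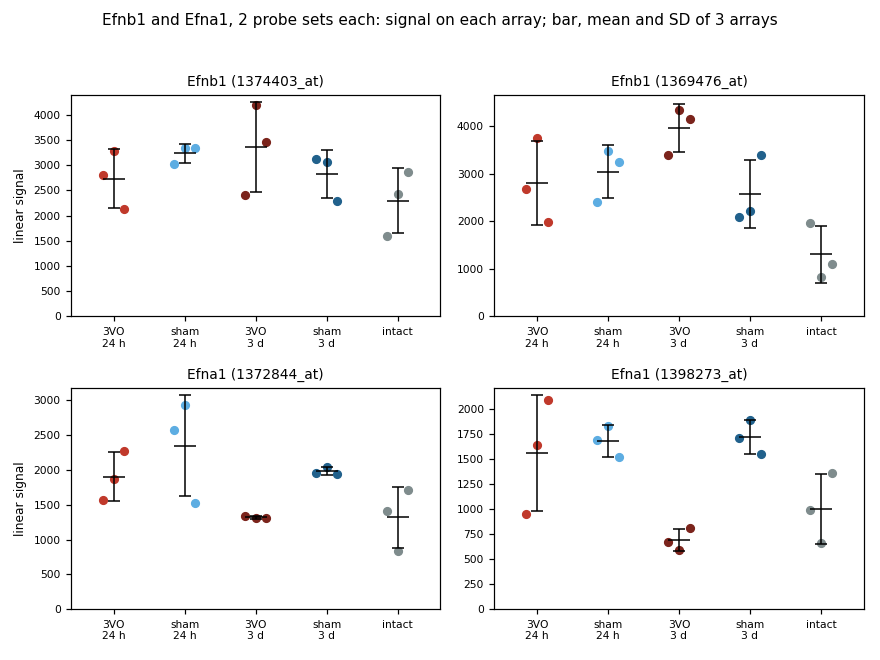
Linear signal of the Efnb1 and Efna1 probe sets on each array (vertical axis), by group from 3VO at 24 h to intact; points are arrays and bars show the mean and SD of 3 arrays. Efnb1 at 1369476_at lies lowest in intact arrays, and Efna1 at 1398273_at lies between 593 and 805 in 3VO arteries at 3 d, under every sham array.

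Efna1, a lipid-anchored ephrin that binds EphA receptors, was the member with the smallest p between 3VO and sham. At 3 d probe set 1398273_at read 669, 593 and 805 in 3VO arteries, against 1709.6, 1888 and 1549 in sham arteries. The highest 3VO array stayed well under the lowest sham array. The difference was -1.30 (SE 0.33, 95% interval -2.01 to -0.60), with an unadjusted p of 0.00131, but the adjusted p was 0.703 (limma). Without sham replicate 1 it was -1.30. The brighter probe set 1372844_at gave the same direction without overlap, at 1341, 1314 and 1306 in 3VO and 1963, 2049 and 1937 in sham arteries and a difference of -0.58 (SE 0.30, 95% interval -1.21 to 0.05), or -0.59 without sham replicate 1. The 2 probe sets tracked each other over the 15 arrays, with a Pearson correlation of 0.85 and a Spearman correlation of 0.92.

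At 24 h Efna1 did not separate 3VO from sham. Probe set 1398273_at read 946, 1639 and 2087 in 3VO and 1683, 1831 and 1519 in sham arteries, and 1372844_at read 1568, 1867 and 2272 in 3VO and 2577, 2929 and 1532 in sham arteries. Intact arteries read 988, 659.9 and 1357 at the first and 1408, 839.8 and 1709 at the second. The groups overlapped, with differences of -0.17 at 1398273_at and -0.26 at 1372844_at. The test of the difference between the occlusion effects, 3 d minus 24 h, gave -1.13 at 1398273_at with an unadjusted p of 0.029 and an adjusted p of 0.999 (limma); of the 10 probe sets 0 passed, against 0% of all, and 1 had an unadjusted p under 0.05, against 2.78% of all. Sham arteries lay above intact ones at 1398273_at at both times without overlap, by 0.79 at 24 h (adjusted p = 0.278) and 0.82 at 3 d (adjusted p = 0.288, or 0.403 without sham replicate 1, where the difference was again 0.82). Endothelial markers were lower in 3VO than in sham at 3 d for 10 of 11 genes, with a median of -0.21 and summed signals of 89436 to 148968 in 3VO and 117210 to 147792 in sham arrays; without sham replicate 1, 3 of the 11 were above 0 and the median was -0.18. With that list as a covariate, an alternative chosen after seeing the data, the Efna1 difference at 3 d was -1.09 at 1398273_at and -0.44 at 1372844_at. Between 3VO and sham at 3 d macrophage markers were above 0 for 10 of 10 genes (median 0.74). Erythroid markers were below 0 for 5 of 5 (median -0.71), and choroid plexus markers for 8 of 8 (median -0.49). Contractile smooth muscle markers were below 0 for 14 of 14 (median -0.38), and oligodendrocyte markers for 7 of 7 (median -0.30). The cause of the Efna1 difference was not tested.

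Against intact arteries the members lay mostly higher in every operated group; the 4 comparisons share the same 3 intact arrays and are not independent. The median over the 7 genes was 0.27 in 3VO and 0.43 in sham at 24 h, and 0.38 in 3VO and 0.61 in sham at 3 d, where the median of all probe sets lay between 0.00 and 0.08. Without sham replicate 1 the 3 d sham median was 0.63. Positive differences were counted for 9 of 10 probe sets in 3VO and 10 of 10 in sham at 24 h, and for 9 of 10 in 3VO and 10 of 10 in sham at 3 d. The exceptions were Jag1 in 3VO at 24 h, at -0.05, and Efna1 at 1398273_at in 3VO at 3 d, at -0.48. By adjusted p, 0 of 10 passed in 3VO at 24 h (0.184% of all probe sets), 0 in sham at 24 h (0%), 1 in 3VO at 3 d (0.222%) and 0 in sham at 3 d (0%). An unadjusted p under 0.05 was reached by 1 of 10 in 3VO (9.96% of all) and 3 in sham (15%) at 24 h, and by 3 in 3VO (12.9%) and 6 in sham (14.2%) at 3 d, or 5 in sham at 3 d without replicate 1.

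In both sham groups 5 of 10 probe sets lay wholly above the intact arrays, where 9.96% of all probe sets did so at 24 h and 9.86% at 3 d. For 3VO the count was 1 at 24 h (7.59% of all) and 2 at 3 d (10.3% of all). Neuronal markers were lower than in intact arteries for 14 of 14 genes in both sham groups, with medians of -1.03 at 24 h and -1.10 at 3 d. Endothelial markers were higher for 11 of 11 genes in both, with medians of 0.67 at 24 h and 0.36 at 3 d. Contractile smooth muscle markers were above 0 for 14 of 14 genes in sham at 24 h (median 0.43) and 12 of 14 at 3 d (median 0.21, or 0.45 without sham replicate 1). In sham at 24 h so were 7 of 7 pericyte markers (median 0.17), 10 of 10 leptomeningeal markers (median 0.50) and 10 of 10 macrophage markers (median 0.53). At 3 d these were 6 of 7 (median 0.51), 10 of 10 (median 0.41) and 8 of 10 (median 0.09) in the same order. Choroid plexus markers were below 0 for 8 of 8 genes in both sham groups. Their medians were -1.68 at 24 h and -0.64 at 3 d, or 0.14 at 3 d without sham replicate 1. The members' median in sham at 24 h was 0.58 with the neuronal and choroid plexus lists as covariates, 0.47 with the endothelial list and 0.22 with the contractile list. At 3 d these medians were 0.54, 0.43 and 0.56 in the same order. The endothelial and contractile lists were alternatives chosen after seeing the data. Endothelial scores were -0.72 to -0.04 in intact arrays, 0.30 to 0.38 in sham at 24 h and -0.002 to 0.24 in sham at 3 d, without overlap between sham and intact. Endothelial content and surgery therefore cannot be told apart here, and the cause was not tested.

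Between the times, 0 of 10 probe sets passed in 3VO arteries (0% of all) and 0 in sham arteries (0% of all) by limma. An unadjusted p under 0.05 was reached by 1 of 10 in 3VO (5.76% of all) and 0 in sham (5.65%). That one was Efna1, which at 3 d lay below the 24 h arrays without overlap, by -1.10 at 1398273_at (unadjusted p = 0.00469, adjusted p = 0.718) and -0.51 at 1372844_at. A single test for any difference among the 5 groups passed 0 of 10, against 0.0763% of all probe sets, with 4 of 10 at an unadjusted p under 0.05, against 12.1% of all. These 4 were Efnb1 at 1369476_at (adjusted p = 0.164), Efna1 at 1398273_at (adjusted p = 0.247), Notch1 at 1371491_at and Efna1 at 1372844_at.

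Other genes of these pathways were read from 3 lists: 52 further Notch pathway genes, of which 32 had a probe set, 19 further ephrins and Eph receptors, of which 9 had one, and 23 further arterial and venous identity genes, of which 20 had one. Of these 61 genes 0 passed in any comparison by limma, with 3 at an unadjusted p under 0.05 between 3VO and sham at 24 h (6.97% of all probe sets) and 4 at 3 d (4.73%). Against intact, 7 reached it in 3VO (9.96% of all) and 13 in sham (15%) at 24 h, and 12 in 3VO (12.9%) and 9 in sham (14.2%) at 3 d. The median between 3VO and sham at 24 h was -0.07 for the Notch list, 0.25 for the ephrin list and -0.13 for the identity list. At 3 d these medians were 0.03, 0.08 and -0.15 in the same order, and 0.00, -0.11 and -0.11 without sham replicate 1. The Notch targets Hey2 and Heyl had no probe set.

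Rbpj, the DNA-binding partner of activated Notch, read 5379.9, 6988 and 5957 in 3VO and 6222, 5849 and 7244 in sham arteries at 24 h. At 3 d it read 5557, 7260.5 and 6088 in 3VO and 6235, 5578 and 4178 in sham arteries, against 4176, 2526 and 3908 in intact arteries. The operated groups overlapped each other and lay above intact arteries, with log2 differences of 0.81 in 3VO and 0.89 in sham at 24 h, of 0.86 in 3VO and 0.60 in sham at 3 d, and adjusted p from 0.111 to 0.23 (limma). The lowest sham array at 3 d and the highest intact array nearly coincided, and the 3 d sham difference was 0.48 without sham replicate 1 and 0.38 without intact replicate 2.

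Nrarp, a Notch target that feeds back on the pathway, read 4118, 3658 and 4159 in 3VO, against 4753, 6759.6 and 4645 in sham arteries at 24 h, with no overlap. At 3 d it read 4907, 7799 and 6779.7 in 3VO and 4872, 5707 and 6177 in sham arteries, which overlapped, against 3442, 3924 and 3469 in intact arteries. It had the smallest p of the 61 genes in the test over all 5 groups (adjusted p = 0.207, limma). Between 3VO and sham its difference was -0.42 at 24 h (unadjusted p = 0.0433, adjusted p = 0.709), or -0.24 without sham replicate 2, and 0.20 at 3 d, or 0.10 without sham replicate 1. Every 3VO array at 3 d and every sham array lay above the intact arrays, by 0.82 in 3VO at 3 d (adjusted p = 0.102), 0.56 in sham at 24 h (adjusted p = 0.197) and 0.62 in sham at 3 d (adjusted p = 0.199). Foxc1, a forkhead factor upstream of arterial Notch genes, read 6785, 7032 and 9881 in 3VO at 3 d, against 6216, 4371 and 4709 in sham arteries and 3666, 2934 and 3830.2 in intact arteries. It separated 3VO from both, by 0.63 from sham (unadjusted p = 0.0255, limma) and 1.17 from intact (adjusted p = 0.0902, limma). The latter was the lowest adjusted p of the 61 genes. The difference from sham was 0.78 without sham replicate 1 and 0.45 without 3VO replicate 3. Between 3VO and sham at 3 d no adjusted p of the 61 genes was under 0.987 (limma).

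Jag2, another Jagged ligand, read 1298, 1104 and 1659 in 3VO at 3 d, against 1926, 3146 and 2428 in sham arteries, with no overlap. The difference was -0.87 (unadjusted p = 0.025, adjusted p = 0.999, limma), or -1.04 without sham replicate 1 and -0.69 without sham replicate 2. At 24 h it was -0.33, again without overlap, although the nearest arrays nearly coincided, at 1939 in 3VO and 1953 in sham. Kat2b, an acetyltransferase that joins Notch transcription complexes, was lower in every 3VO array than in every sham array at 3 d, by -0.47 (unadjusted p = 0.0145, adjusted p = 0.987, limma). This Kat2b difference was -0.60 without sham replicate 1 and -0.37 without sham replicate 3. Flt4, a receptor of lymphatic and venous endothelium, was dim and differed by -1.71 at 3 d, with means of 245 ± 207 in 3VO and 789.5 ± 528 in sham arteries (SD, n = 3 each). Its groups overlapped, the adjusted p was 0.999 (limma), and the difference was -1.21 without sham replicate 1, which read 1396. At 24 h Rfng, a glycosyltransferase that modifies Notch, was higher in every 3VO array, by 0.35, and Ctbp2, a corepressor, was lower in every 3VO array, by -0.40. Without 3VO replicate 1 these values were 0.16 for Rfng and -0.13 for Ctbp2.

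Of the arterial connexins, Gja5 read 1602, 5791 and 5998 in 3VO and 5245, 7879 and 5459.9 in sham arteries at 24 h, against 2031, 1628 and 2749 in intact arteries. The sham arrays alone cleared the intact arrays at 24 h, with a difference of 1.54 (adjusted p = 0.17, limma). Gja4 differed from intact by 0.64 in the same group, or 0.39 without intact replicate 1 and 0.996 without intact replicate 3. Between 3VO and sham, the protease Adam10 that cleaves Notch differed by 0.16 at 24 h and -0.10 at 3 d, the endothelial receptor Notch4 by -0.21 and 0.12, and the ligand Dll1 by -0.14 and -0.37. For the venous receptor Ephb4 these values were -0.39 and -0.05, for the Efna1 receptor Epha2 -0.38 and 0.08, and for the arterial coreceptor Nrp1 -0.10 and -0.07. For the glycosyltransferase Lfng they were -0.15 and -0.15, and for the target Hes5 -0.28 and 0.59; all of these lacked an unadjusted p under 0.05. Without sham replicate 1 the 3 d values turned to 0.18 for Adam10 and -0.13 for Notch4, and were 0.31 for Epha2 and -0.32 for Lfng.

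**Figure D5:**
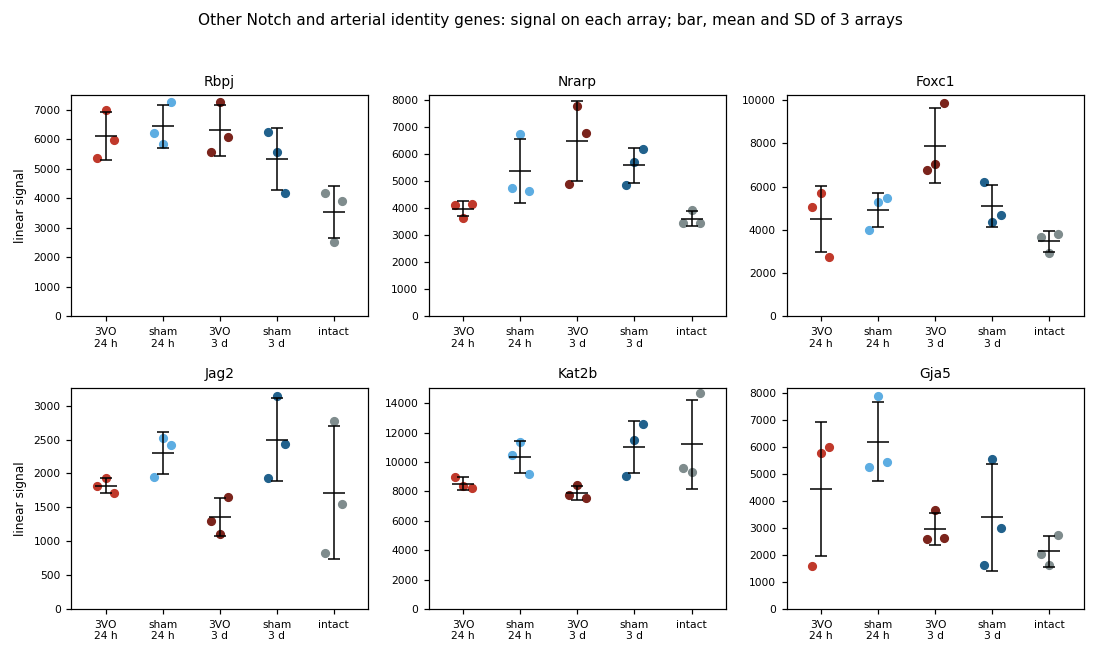
Linear signal of 6 other Notch and arterial identity genes on each array (vertical axis), by group from 3VO at 24 h to intact; points are arrays and bars show the mean and SD of 3 arrays. Rbpj lies lowest in intact arteries (3537 ± 885), and Foxc1 highest in 3VO arteries at 3 d (7899 ± 1721).

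For each member the 2 genes whose log2 signal was most like it over the 15 arrays were taken by Pearson's r among 9981 to 9982 probe sets of other genes with a mean signal of at least 1000. Arrays of one group and one scaling are shared by all of these, and the highest of so many values is high by selection, so they are given as a description. Notch1 was most like Stat6 (r = 0.92, rho = 0.91) and Nbeal2 (r = 0.90, rho = 0.76), Notch2 most like C1galt1 (r = 0.90, rho = 0.86) and Pxdn (r = 0.87, rho = 0.85) and Notch3 most like Kcnj4 (r = 0.89, rho = 0.68) and Ly6l (r = 0.87, rho = 0.71). For Jag1 the genes were Rexo2 (r = 0.87, rho = 0.81) and Synpo (r = 0.87, rho = 0.85), and for Hes1 Akt2 (r = 0.86, rho = 0.78) and Lrrfip1 (r = 0.85, rho = 0.85). Where a member had 2 probe sets, the brighter was used. Efnb1 at 1374403_at, not the probe set with the call, paired with Ckap4 (r = 0.89, rho = 0.77) and Col4a1 (r = 0.89, rho = 0.89), Col4a1 being a chain of basement membrane collagen. Efna1 at 1372844_at paired with Fam114a2 (r = 0.86, rho = 0.73) and Tm4sf1 (r = 0.85, rho = 0.84).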

How the data were processed

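RNA of rat posterior cerebral artery was measured on 15 Affymetrix Rat230A arrays in 5 groups of 3, and groups were taken from the titles and source names. The deposited values are linear signal intensities, which the authors computed in GCOS (version not given in the sources used here) with global scaling, per the labels. The labels give a target of 500, but every array had a mean of 5000 once 2% of values was trimmed from either end. That scaling was kept.

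Probe sets were named from the platform table, updated through gene identifiers; 12783 had 1 gene, 312 several and 2771 none. Probe sets carry no coordinates here because their build was not named. Signals were analysed as log2(signal + 16), which understates changes of low signals. The 57 control probe sets were left out, and testing covered the 15737 probe sets that reached a signal of 100 on 3 arrays or more. The 5 group means were fitted with limma 3.58.1 in R 4.3.3 (10 residual degrees of freedom, 4.83 prior degrees of freedom, variance trend). All tests were 2-sided, with Benjamini-Hochberg adjustment over all probe sets within a comparison and a threshold of 0.05. The steps were tested on simulated data.

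The brighter probe set by mean signal was the main one where a gene had 2. All members with a probe set are named. Other pathway genes are named where they were among the 3 with the smallest p between 3VO and sham at either time or in the test over all groups, or stood on a fixed list of core components. The members and lists were chosen with earlier results of these data known. Besides the reported fit, 27 other settings were run, and 3 more were chosen after seeing the data. Promoter sequences are from RefSeq (GRCr8).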

Additional observations from a re-analysis of the deposited data

How the results depend on the processing

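The number of member probe sets passing in 3VO at 3 d against intact, 1 as reported, was 0 under quantile normalization, median centring, no variance trend, array weights, the groups of the comparison alone, the neuronal list as a covariate, the neuronal and choroid plexus lists as covariates, and the brightest probe set of each gene, which leaves out Efnb1 probe set 1369476_at. It was also 0 under 2 alternatives chosen after seeing the data, the endothelial list as a covariate and leaving out the 2 arrays highest in choroid plexus markers. Leaving out 1 array at a time gave 0 to 1, and 11 of the 15 omissions ended the call. It stayed at 1 with a pseudocount of 1 or 64, no signal minimum, a minimum of 1000 with a pseudocount of 160, and the contractile list as a covariate. The Efnb1 difference kept its direction throughout, between 1.40 and 2.02, with adjusted p from 0.0332 to 0.359 (limma). Apart from the brightest-probe-set setting, where this is fixed by construction, the cause was not tested. In the other comparisons 0 members passed under any of these alternatives. Of 2960 single probe set values under alternatives, 20 lost the call, 50 without a call moved by more than 1 SE, and the other 2890 stayed within that or kept their call. The sign turned for 90 values, none of them called. No paired analysis was possible because the labels number arrays without shared numbers between groups. With 3 arrays a group, limits come from the spread between arrays, and latex-filled pooled arteries carried markers of neighbouring brain and choroid plexus.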

Other observations

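The 2 arrays that stood apart in choroid plexus markers were also at the ends of several members' ranges. Sham 3 d replicate 3 gave the highest signal of all 15 arrays for Notch1 at 1371491_at, 8420.4, for Notch2, 3106, and for Hes1, 4137. Intact replicate 2 gave the lowest signal of all 15 for Efnb1 at 1369476_at, 824, while its Notch3 signal of 6096 was the highest of the intact arrays, whose others read 2065 and 3711. The same array was the lowest for Efna1 at 1372844_at, at 839.8. Arrays without high choroid plexus markers held such ends too. Intact replicate 1, with a choroid plexus score of -0.49, was the lowest of all 15 for Notch1 at 1371491_at (3830.2), Notch3 (2065) and Efnb1 at 1374403_at (1593). A link between choroid plexus content and the members was not tested. With the 2 arrays highest in choroid plexus markers left out, the Efnb1 difference at 1369476_at between 3VO at 3 d and intact was 1.40 on the log2 scale, where all arrays gave 1.68. Of the 2 arrays only intact replicate 2 enters that difference, and it held the lowest signal, so a smaller value was fixed beforehand. The omission therefore cannot show a link to choroid plexus content.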
